A study of Saccharomyces cerevisiae with 23 samples.

Results

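Lines 19-49 and 19-50, 2 of the 23 yeast lines measured, are described here through the 224 features of chromosome IX (systematic names starting YIL or YIR) and the 6110 features elsewhere. The pair was picked because its chromosome IX values lie on the positive side of the other 21 lines. Every difference of the pair from those lines is therefore a description with no test. They are called lines 49 and 50 here.

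All 23 are mutation accumulation lines of Saccharomyces cerevisiae, each with 1 column of log ratios against cDNA of 1 reference strain, YPS183. Every culture, of lines 49 and 50 and of the other 21 lines alike, was unsynchronized, grown in YPD at 30 °C and taken in log phase at an OD600 near 1.0, against 1.1 for the reference. Line cDNA carried Alexa Fluor 555 and reference cDNA Alexa Fluor 647 throughout, with no dye swap. The labels give no genotype, ploidy, mating type or DNA measurement for any line, and the ancestor was not analysed here. The sources used here state neither the base of the logarithm nor which channel was the numerator. Values are read as log2, and a positive value is not assigned to the line or to the reference. The label of the pair as raised therefore means only that its values are on the positive side. A line is 1 column here, so a value has no replicate error of its own, and the spread over the other 21 lines stands in for it.

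Mutation accumulation lines are propagated through repeated narrow bottlenecks, so that mutations of most kinds persist with little selection. In budding yeast such mutations include gains and losses of whole chromosomes. When a chromosome is gained, transcripts of most of its genes are known to rise together, whatever the genes do. With no DNA measurement, and with the sign of the ratio not assigned, a change in copy number of chromosome IX in the pair was not tested. Chromosome IX carries genes of unrelated roles, among them the allantoin degradation genes near its right end, SUC2 for invertase, the flocculin FLO11 and subunits of the proteasome, the nuclear pore and chromatin complexes.

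The median deposited value over the 224 chromosome IX features was 0.32 in line 49 and 0.25 in line 50. The other 21 lines ran from -0.07 to 0.05, with a median of -0.002. The pair did not overlap the other lines. As a difference from the mean of the other 21 lines, the chromosome IX median was 0.33 in line 49 (quartiles 0.16 and 0.47) and 0.27 in line 50 (quartiles 0.08 and 0.47). Each of the other lines, set against the remaining 20, gave a median between -0.05 and 0.06 (SD 0.028, n = 21). Were the base 2, these medians would be ratios of 1.25 and 1.21.

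The 15 other chromosomes did not share this. Their medians lay between -0.08 (chromosome I) and 0.06 (chromosome VIII) in line 49 and between -0.03 (chromosome XVI) and 0.01 (chromosome I) in line 50. Over all lines and chromosomes, the only other medians of 0.2 or more in size belonged to line 20, at -0.22 on chromosome VI, -0.22 on VIII and -0.24 on XIII.

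**Figure D1:**
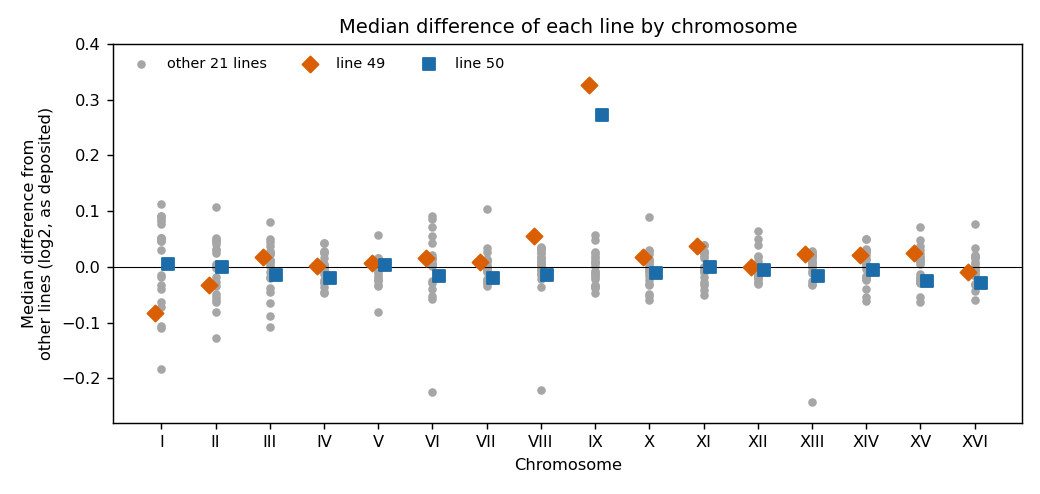
Median difference of each line from the mean of the other lines (vertical axis, log2 scale as deposited) over the features of each of the 16 chromosomes (horizontal axis), with grey points for the other 21 lines, a diamond for line 49 and a square for line 50. On chromosome IX the pair stands at 0.33 and 0.27 with the other lines between -0.05 and 0.06, and on the 15 other chromosomes it lies between -0.08 and 0.06.

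Most chromosome IX features took part, by modest amounts. In line 49, 195 of the 224 differences (87.1%) were positive, and in line 50 it was 187 (83.5%). Both lines were positive at 170 features (75.9%) and both negative at 12 (5.36%), and the lines had opposite signs at the remaining 42. Off chromosome IX both were positive at 1659 of 6110 features (27.2%) and both negative at 1742. Differences of 0.5 or more were found at 48 chromosome IX features in line 49 (21.4%) and 49 in line 50 (21.9%). The shares elsewhere were 2.57% and 1.83%. A difference of 1 or more was reached on chromosome IX by no feature in line 49 and by 4 in line 50. The SD of the differences over features was 0.260 in line 49 and 0.285 in line 50 on chromosome IX, and 0.234 and 0.244 elsewhere, so they were more scattered on chromosome IX in both lines.

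The positive values ran along both arms. The left arm (179 features) had medians of 0.33 in line 49 and 0.28 in line 50, and the right arm (45 features) 0.24 and 0.22. On the right arm the other lines ran from -0.20 to 0.15, a wider range than over the whole chromosome. Split into 10 stretches of 22 or 23 features by the order of systematic names, both lines lay above all other 21 lines in 8 stretches. In those 8 the medians ran from 0.20 to 0.43 in line 49 and from 0.21 to 0.39 in line 50. For line 49 the highest was the stretch from IMP21 to RPL16A on the left arm, at 0.43. For line 50 the stretches from AIM19 to RNR3 and, on the right arm, from SGN1 to MRS1 were highest, both at 0.39.

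The other 2 stretches were the ones at the chromosome's ends. From YIL177C to GUT2 at the left end, medians were 0.24 and 0.16, with the other lines from -0.30 to 0.17, so line 49 alone lay above them. From SEC11 to YIR044C at the right end, they were 0.19 and 0.11, inside the other lines' range of -0.20 to 0.28. The 10 features nearest each end, 20 in all, had medians of 0.10 and 0.04, against 0.33 and 0.29 for the 204 features between them. The 300 features in the same places on the other chromosomes had medians of 0.03 in both lines. Ends of yeast chromosomes carry repeated gene families, such as the seripauperins, whose copies on different chromosomes are much alike. How far spots of such families read transcripts from other chromosomes was not tested. The 12 chromosome IX features that no current gene matched also lay lower, at medians of 0.19 and 0.04.

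**Figure D2:**
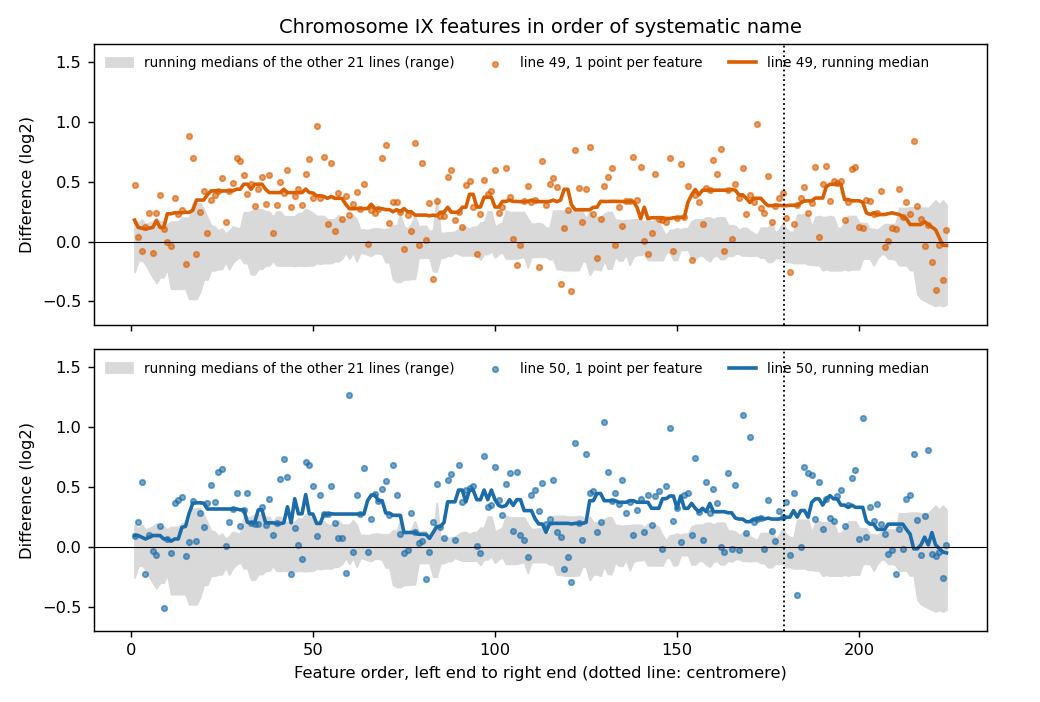
Difference from the mean of the other 21 lines (vertical axis, log2 scale) for the 224 chromosome IX features in order of systematic name from the left to the right end (horizontal axis), for line 49 above and line 50 below, with a running median over 15 features as a line and the range of the other lines' running medians in grey. At 164 of the 224 positions (73.2%) the running medians of both lines lie above those of all other 21 lines, and both fall to near 0 at the right end.

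A feature whose values in lines 49 and 50 both exceeded the highest of the other 21 lines was counted as beyond them. This held for 27 chromosome IX features (12.1%), and 0 lay below the lowest of the other lines in both. Over all 6334 features the share beyond was 0.489% on the upper side, 0.0947% on the lower side and 0.584% on either side. This count uses the contrast that picked the pair, and nothing is read from it about the choice. Line 49 by itself lay above the other lines at 54 chromosome IX features (24.1%, against 3.08% of all features) and line 50 at 52 (23.2%, against 2.21%). The count depended on how much the other lines varied at a feature. With chromosome IX features in 4 equal groups by their SD over the other lines, 11, 11, 4 and 1 were beyond from the steadiest to the most variable group. The median differences of line 49 in those groups were 0.28, 0.35, 0.32 and 0.36, and those of line 50 were 0.19, 0.38, 0.30 and 0.29.

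The deposited values of single features, all counted as beyond the other lines, are given next as examples. SSM4, the ubiquitin ligase of the endoplasmic reticulum membrane also known as Doa10, was 0.79 in line 49 and 1.08 in line 50. The other lines ran from -0.40 through a median of 0.12 to 0.68. Both lines were above all others. VHR1, a transcription factor of the biotin response, was 0.48 and 0.59, and no other line reached more than 0.28 (lowest -1.42, median -0.29). NRE1 was 0.68 and 0.62 against -0.63, -0.12 and 0.15 as lowest, median and highest of the other lines. At each of these 3 genes the gap between the pair was smaller than the gap between either line and the median of the others.

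TAO3, a scaffold of the network that controls cell separation and shape, had nearly the same value in lines 49 and 50, 0.70 in both, with the other lines from -0.35 to 0.64. NUP159, a nucleoporin of the cytoplasmic face of the pore, was likewise 0.33 in both, against -0.12 to 0.21. For NUP159 the difference from the mean of the other lines was 0.27 in each. The uncharacterized YIL108W was 0.82 and 0.57 against -0.33 to 0.29, and its neighbour SEC24, a coat protein of vesicles that leave the endoplasmic reticulum, was 0.78 and 0.57 against -0.23 to 0.40. All 4 are among the features counted as beyond the other lines. That the values of the pair and of the other lines did not overlap follows from that rule.

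**Figure D3:**
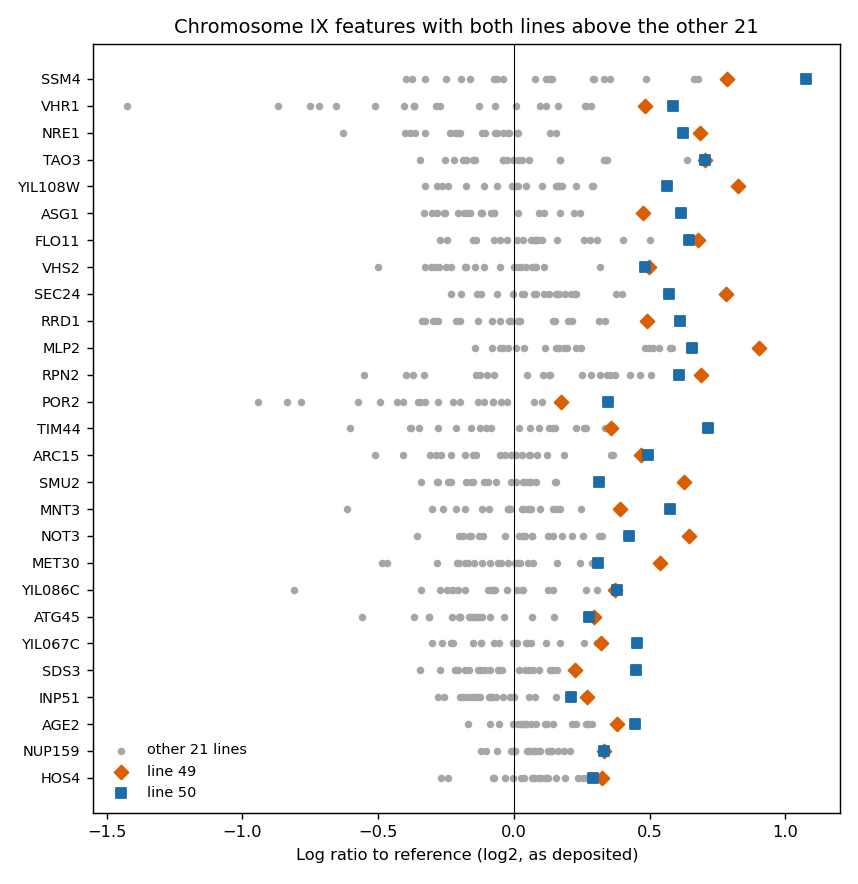
Deposited log ratio to the reference (horizontal axis, log2 scale) at the 27 chromosome IX features where lines 49 (diamond) and 50 (square) both lie above the other 21 lines (grey points), 1 feature per row, ordered by the mean difference of the pair. SSM4, at 0.79 and 1.08, has the highest mean difference of these. The pair's values do not overlap the grey points in any row because the rows were chosen by that rule.

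Not every large difference was shared so evenly. The cell wall mannoprotein gene TIR3 had the largest mean difference on the chromosome, with 0.49 in line 49 and 0.98 in line 50. The other lines spanned -1.05 to 0.95, so 4 of them lay above line 49 and none above line 50. NEO1, a phospholipid flippase, was 0.85 and 1.43 against -0.89 to 1.59, inside the range of the other lines in both. RHO3, a GTPase of polarized secretion, was 0.33 in line 49, where 5 other lines were higher, and 1.38 in line 50, where none was (other lines -0.37 to 0.67). FAA3, a fatty acyl-CoA synthetase, showed the same order, with 0.24 and 0.77 against -0.77 to 0.57. ASG1, a zinc cluster transcription factor, was 0.48 and 0.62 against -0.33 to 0.24, above all other lines in both. The threonyl-tRNA synthetase gene THS1, at 0.43 and 0.50 against -0.96 to 0.69, and YIL082W-A, at 0.47 and 0.71 against -0.42 to 0.72, completed the 12 largest mean differences, and at both some other line was higher than either member of the pair.

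The 8 lowest mean differences on the chromosome ran from -0.35 at RGI2 to -0.12 at FYV10. RGI2, a gene of respiratory growth, was -0.25 in line 49 and -0.13 in line 50, and the other lines ran from -0.36 through 0.04 to 0.89. YIR043C was -0.18 and -0.12 against -0.35 to 0.52. The seripauperin gene PAU15 near the right end was -0.47 and -0.14 against -0.57 to 0.30. None of these 3 lay beyond the other lines in either member of the pair. As differences in lines 49 and 50 they were -0.41 and -0.29 at RGI2, -0.32 and -0.26 at YIR043C, and -0.41 and -0.08 at PAU15. Of the rest, YIL060W differed by -0.35 in line 49 and 0.09 in line 50, CSS1 by 0.11 and -0.51, and FYV10, a subunit of the ubiquitin ligase for gluconeogenic enzymes, by 0.02 and -0.26. The DNA helicase gene MPH1 differed by -0.26 and -0.06 and YIL163C by -0.18 and -0.07.

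Grouped by role, 97 chromosome IX genes in 10 lists gave positive differences in both lines at 76, and 11 were beyond the other lines. These shares, 78.4% and 11.3%, were near the 75.9% and 12.1% of all chromosome IX features. The median over the 6110 features elsewhere was 0.01 in line 49 and -0.01 in line 50. The 10 genes of transport and the cell surface had the highest medians of the 10 lists in each line, 0.51 in line 49 and 0.55 in line 50. The other lines ran from -0.24 to 0.43 for this list. All 10 were positive in both lines. Besides TIR3 and NEO1 they included the flocculin FLO11 (0.68 and 0.65, other lines -0.27 to 0.50), the plasma membrane protein SYG1 (0.57 and 0.66, other lines -0.73 to 0.82) and the SUN family cell wall gene SIM1 (0.29 and 0.15, other lines -1.38 to 0.67). FLO11 alone of this list was beyond the other lines in both. The drug exporters QDR1 and QDR2 differed least in line 50, by 0.07 and 0.08.

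Genes of protein folding, targeting and turnover had medians of 0.43 and 0.30 over 12 genes, above the other lines' range of -0.21 to 0.14. Of these, 4 were beyond the other lines in both members of the pair. RPN2, a base subunit of the proteasome regulatory particle, was 0.69 and 0.61 against -0.55 to 0.50. MLP2, a filament protein of the nuclear pore basket, was 0.90 and 0.66 against -0.14 to 0.58. MET30, the F-box protein that restrains sulfur amino acid synthesis, was 0.54 and 0.31 against -0.49 to 0.29, so line 50 passed the highest other line narrowly. TIM44, which anchors the import motor of mitochondria, was 0.36 and 0.72 against -0.60 to 0.34, and there line 49 was the close one. URM1, a ubiquitin-like protein that serves tRNA thiolation, had the largest difference of line 49 on the chromosome, 0.98, with 0.23 in line 50.

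The 14 genes of transcription and chromatin had medians of 0.33 and 0.29, and the other lines ran from -0.12 to 0.11. All 14 were positive in line 49 and 12 in line 50. NOT3, of the CCR4-NOT complex of mRNA decay and transcription, was 0.65 and 0.43 against -0.36 to 0.32. STH1, the ATPase of the chromatin remodeller RSC, was 0.39 and 0.47 against -0.23 to 0.45. NOT3 was beyond the other lines in both, as were ASG1 and HOS4, of the Set3 histone deacetylase complex (differences 0.27 and 0.23). As differences from the mean of the other lines, the forkhead factor gene FKH1 (0.31 and -0.10) and the regulator gene RPI1 (0.38 and -0.21) had opposite signs. The deposited values of RPI1 were 0.60 in line 49 and 0.01 in line 50, both positive.

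Signalling, actin and polarity genes (13) had medians of 0.24 and 0.30, and genes of DNA replication, repair and chromosome segregation (13) had 0.20 and 0.30. For both lists the medians of the pair were above those of all other lines. PAN1, a scaffold of endocytic actin patches, was 0.44 and 0.65 against -0.56 to 0.47, and SLN1, the histidine kinase that senses osmotic state, was 0.51 and 0.26 against -0.54 to 0.37. Each of them was above all other lines in a single member of the pair. Among the replication genes the primase subunit PRI1 was 0.36 and 0.64 against -0.31 to 0.41, and the origin factor MCM10 was 0.47 and 0.30 against -0.35 to 0.32. The gene for a damage-inducible ribonucleotide reductase subunit, RNR3, was -0.26 and 0.26 against -0.68 to 0.36. No replication, repair or segregation gene was beyond the other lines in both members of the pair.

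For metabolic genes the other lines spread more widely. The 6 genes of amino acid synthesis had medians of 0.28 and 0.43 with other lines from -0.35 to 0.54, and all 6 were positive in both. The serine gene SER33 (0.37 and 0.62) and the lysine genes LYS12 (0.34 and 0.53) and LYS1 (0.23 and 0.44) had larger differences in line 50, and the histidine gene HIS5 nearly equal ones (0.42 and 0.43). The 13 genes of carbon, lipid and energy metabolism had medians of 0.29 and 0.28, with other lines from -0.51 to 0.50, and 10 were positive in both lines. POR2, a mitochondrial porin, was 0.17 and 0.35 against -0.94 to 0.10 and was beyond the others. KGD1, of the 2-oxoglutarate dehydrogenase complex, was 0.57 and 0.14 against -1.05 to 0.83. SUC2, whose transcripts respond strongly to glucose, was 0.00 and -0.83 against -4.22 to 1.36, so the other lines alone spanned far more than any difference of the pair.

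The allantoin genes, a cluster of catabolic genes under nitrogen control near the right end, stood lowest of the 10 lists, with medians of 0.12 and -0.02 over 7 genes and the other lines from -0.17 to 0.16. With the median of the other lines as the baseline, that of line 50 was 0.0056. The allantoinase gene DAL1 was -0.12 and 0.03 against -0.38 to 0.12, and the permease gene DAL4 was -0.04 and -0.11 against -0.46 to 0.58. Both lines lay inside the others for both genes. The list also holds DAL81, a regulator that lies outside the cluster, with differences of 0.34 and 0.33. The malate synthase gene DAL7 differed by 0.44 and 0.15. In rich medium the genes of this cluster are known to be little expressed. The deposited ratios do not show how bright these spots were.

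The 5 ribosomal protein genes of chromosome IX had medians of 0.46 and 0.17, with the other lines from -1.33 to 1.44. Each has a near-identical copy on another chromosome, and spots of such copies may share transcripts. The differences of RPL34B were 0.79 and 0.45, and those of its copy RPL34A on another chromosome 0.71 and 0.39. RPL40A had 0.67 and 0.17 and RPL40B 0.72 and 0.23. RPL16A had 0.38 and 0.16 and RPL16B 0.41 and -0.17. RPL2B had 0.43 and 0.29 and RPL2A 0.37 and 0.27. RPS24B had 0.46 and -0.08 and RPS24A 0.65 and -0.13. The copies on other chromosomes thus had values near those of chromosome IX, least so RPL16B in line 50 and RPS24A in line 49. Whether the spots tell the copies apart was not tested. The 4 redox genes had medians of 0.21 and 0.19, inside the other lines' range of -0.67 to 1.26.

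Genes of one process that sit on different chromosomes can be set beside each other. The pair was picked for its chromosome IX values, so a positive gap is largely set by that choice and is a description alone. In 13 lists that run over the genome and have chromosome IX members, the median of those members exceeded the median of the rest in 12 lists for line 49, in 10 for line 50 and in 9 for both. The median gap over the 13 lists was 0.25 in each line. RPN2, the proteasome gene of the list on chromosome IX, differed by 0.61 and 0.53, while the 34 proteasome genes elsewhere had medians of -0.17 and -0.27. The 5 Gcn4 target genes on chromosome IX had 0.34 and 0.44, and the 57 elsewhere -0.06 and -0.10. COX5B, a cytochrome oxidase subunit of low oxygen, had 0.24 and 0.44, and the 37 respiratory genes elsewhere had -0.01 and -0.37. RPN2 was above all other lines in both, but at COX5B 6 other lines were higher than line 49 and 5 higher than line 50. Of the 13 lists, 6 hold a single chromosome IX gene, and the gap then rests on that gene. The exceptions were the stress genes in line 49 (gap -0.04) and, in line 50, the a-specific BAR1 (-0.49), the nitrogen genes (-0.02) and the gluconeogenesis list, through the fatty acid breakdown gene POT1 (-0.01).

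**Figure D4:**
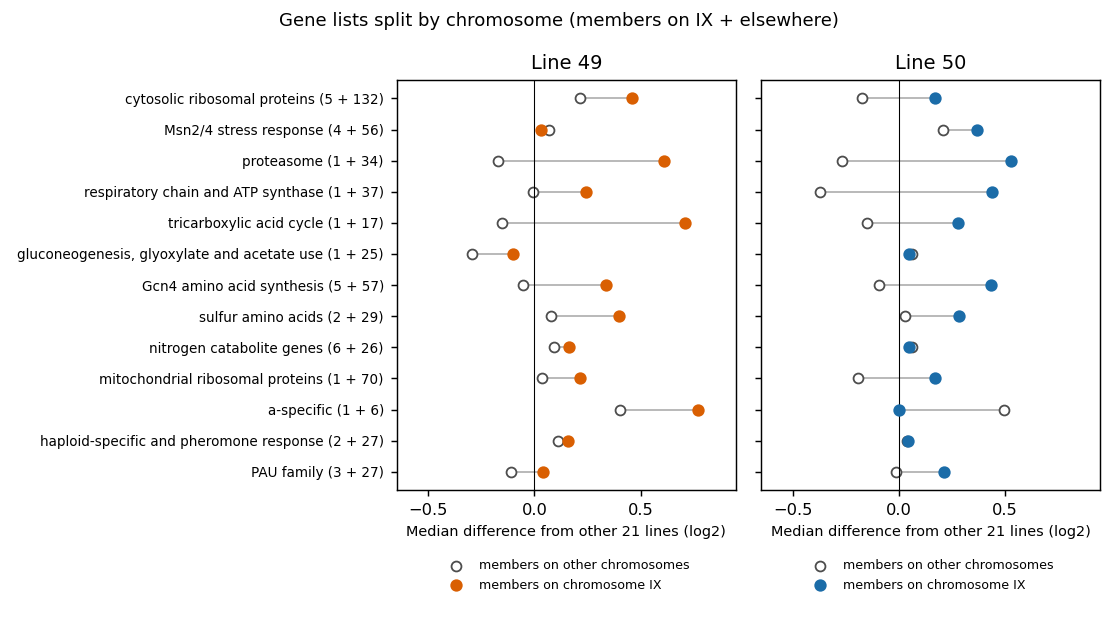
Median difference from the mean of the other 21 lines (horizontal axis, log2 scale) for 13 gene lists (rows, with the number of members on chromosome IX and elsewhere), split into members on chromosome IX (filled) and on other chromosomes (open), for line 49 on the left and line 50 on the right. Filled points lie to the right of open ones in 12 lists for line 49 and in 10 for line 50, by a median of 0.25 in each.

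Away from chromosome IX the lines shared little. The Pearson correlation of their differences over features was 0.40 on chromosome IX (n = 224) and 0.13 off it (n = 6110), and it ran from 0.004 (chromosome VIII) to 0.33 (chromosome VI) within the 15 other chromosomes. All columns share the reference, and features are not independent, so these are descriptions. Of the 253 pairs of lines, 80 had a higher correlation off chromosome IX than lines 49 and 50, and the pairs ranged from -0.79 to 0.86. That rank is not on a like footing. Lines 49 and 50 had the same mean subtracted, which raises their correlation, while other lines enter each other's baseline, which lowers theirs. How much of the 0.13 comes from the shared baseline was not tested. Off chromosome IX line 49 was most like line 10 (0.29) and line 50 most like line 42 (0.41). Line 42 was also the next most like line 49 (0.25), above the 0.13 of the pair.

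**Figure D5:**
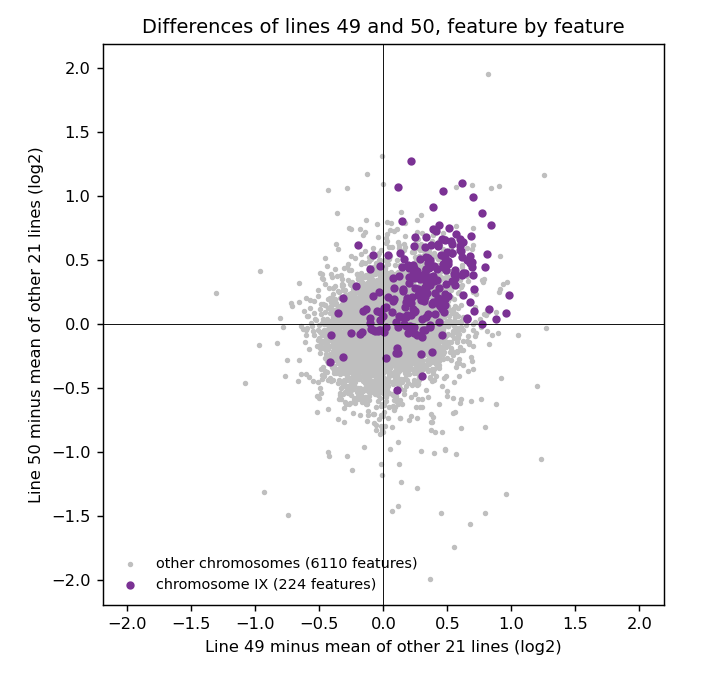
Difference from the mean of the other 21 lines on the log2 scale in line 49 (horizontal axis) and line 50 (vertical axis), 1 point per feature, with the 224 chromosome IX features in purple and the other 6110 in grey. Purple points lie mostly at positive values of both lines (170 of 224), and the grey cloud shows little slope (correlation 0.13).

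Off chromosome IX, 10 features (0.164%) were beyond the other lines in both members of the pair, 4 above and 6 below. The one with the largest size was AIF1, a mitochondrial protein linked to yeast cell death, on the right arm of chromosome XIV near its end. It was -1.11 in line 49 and -1.48 in line 50, and the other lines ran from -0.69 through -0.15 to 0.28. Its neighbour COS10 parted the lines, at -1.34 in line 49, below all other lines, and 0.21 in line 50, where 3 other lines were higher. The other features below were MRX1 (-0.55 and -0.49), EXO84 of the exocyst (-0.42 and -0.34), YAL042CA, the splicing factor gene CLF1 and TFC8 of the polymerase III factor TFIIIC. Above lay the spore wall gene SPO19 (0.66 and 0.69, other lines -0.30 to 0.55), YJR162C (0.79 and 0.69, other lines -0.55 to 0.62), YGL138C and YOR365C.

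The a-specific genes, which mark the a mating type, were positive in both lines, with medians of 0.41 and 0.43 over 7 genes. STE2, the alpha-factor receptor, was 1.40 in line 49 and 1.81 in line 50, and 4 and 3 other lines were higher (lowest -0.50, median 0.33, highest 4.55). MFA2, which encodes a-factor, was 1.71 and 1.62 with 3 other lines higher than each (lowest -0.39, median 0.13, highest 3.53). Each of STE2 and MFA2 thus gave the pair values above most other lines and well under the highest. BAR1, the a-specific protease gene that lies on chromosome IX, was 0.93 and 0.16, against -0.18 to 1.53. The 6 alpha-specific genes measured had medians of 0.12 and -0.12.

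The difference between line 49 and line 50 was tested, since the choice of the pair did not use it off chromosome IX. On chromosome IX both lines were picked for positive values, so their likeness there is in part set by the choice. With limma, the spread taken from the other 21 lines (20 residual degrees of freedom) and Benjamini-Hochberg adjustment over 6334 features, 0 features (0%) passed an adjusted p of 0.05. Without adjustment, 93 (1.47%) had a p under 0.05, of which 57 were positive and 36 negative and 8 were on chromosome IX. The lowest adjusted p in limma was 0.248, for YKL177W (difference 1.20, SE 0.24) and YGL132W (0.88, SE 0.18). YKL177W was 0.31 in line 49, above all other lines, and -0.89 in line 50, below them all (-0.48 to 0.16). YGL132W was likewise 0.58 and -0.30 against -0.14 to 0.25. The test is limited by the lone column of each line and by a spread borrowed from the other lines. The SD over features was 0.245 in line 49 and 0.287 in line 50, against a median of 0.355 in the other lines. Fewer features had an unadjusted p under 0.05 than that threshold alone would give with no difference. The SE may therefore be too wide for the pair, which was not tested. On simulated data with the spread of the other lines, the test recovered 11 of 50 changes of size 1 and 35 of 50 of size 2. A feature that missed the threshold is not shown to be equal in the lines.

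On chromosome IX the lines differed by a median of 0.01, with an SD of 0.30 over features, and elsewhere by a median of 0.02. Line 49 was the higher at 118 of the 224 chromosome IX features. The genes farthest apart there, chosen after their values were seen, were RHO3 (line 49 minus line 50 -1.05, SE 0.43), MRS1, which serves mitochondrial intron splicing (-0.96, SE 0.43), RRT14 (0.87, SE 0.28), SUC2 (0.84, SE 2.04) and HOP1 of the meiotic chromosome axis (-0.82, SE 0.28). Each had an adjusted p of 1 in limma. HOP1 was -0.19 in line 49 and 0.63 in line 50, against -0.46 to 0.25, and RRT14 was 0.93 and 0.06, against -0.36 to 0.34. At both, the higher member of the pair was above all other lines and the lower was inside them.

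Elsewhere, 59 features differed by 1 or more, 48 with line 49 higher and 11 with line 50 higher. The 7 with line 49 highest above line 50, again chosen after their values were seen, were HXT6, RPL26B, HXT2, the RNA helicase gene DBP2, RPL43A, RPS19A and MAL12, with differences from 2.36 down to 1.93. HXT6, a high-affinity glucose transporter, was -0.34 in line 49 and -2.70 in line 50, below all other lines (-2.60, -0.55 and 0.22 as lowest, median and highest), a difference of 2.36 (SE 0.98). HXT2, another glucose transporter, was 0.57 and -1.71 against -2.40 to 0.77. The maltase gene MAL12 was 0.03 and -1.90 against -2.46 to 1.32. At each of the 7 genes, HXT6 included, the other lines alone spanned more than the difference of the pair.

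With line 50 higher, the largest differences were at COS10 (-1.55, SE 0.39), the glyoxylate cycle malate synthase gene MLS1 (-1.48, SE 0.57) and the autophagy gene ATG7 (-1.38, SE 0.49). COS10 had an adjusted p of 0.877 in limma, and the other 2 of 1. MLS1 was -0.12 and 1.36 against -0.31 to 1.05, so line 50 was above all others, whereas ATG7 was -0.90 and 0.48 against -0.73 to 0.68, so line 49 was below them all.

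By list, no member of any list was called between the lines. Line 49 was the higher at 122 of 137 ribosomal protein genes, with a median difference from line 50 of 0.40, at 73 of 88 ribosome biogenesis genes (0.22) and at 60 of 71 mitochondrial ribosomal protein genes (0.23). Over all features it was the higher at 53.2%. The ribosomal protein medians of the other lines ran from -1.15 to 1.61, so they differed among themselves by more than the pair did. As differences from the other lines the medians were 0.22 in line 49 and -0.17 in line 50, and that of line 50 was 0.03 when the median of the other lines served as the baseline. Line 49 was also the higher at 18 of 20 thiamine genes (0.50), 10 of 10 histone genes (0.42) and 30 of 38 respiratory chain or ATP synthase genes (0.41). The medians of the other lines ran from -0.86 to 1.12, from -0.90 to 1.73 and from -0.68 to 0.79 for these lists. Line 50 was the higher at all but 3 of 26 genes of gluconeogenesis, the glyoxylate cycle and acetate use (-0.38) and all but 4 of 24 chaperone genes of the heat shock factor Hsf1 (-0.33). For these the other lines' medians ran from -0.58 to 0.68 and from -0.39 to 0.34. In each of these lists too, the other lines differed among themselves by more than the pair did. Members of such lists are known to move together, so their count is not a count of independent genes.

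The columns of the pair were among the narrower ones. The SD over features was 0.245 in line 49, the lowest of the 23, and 0.287 in line 50, with 0.246 to 0.583 in the other lines. All column medians lay between -0.018 and 0.018. When columns were brought to a common spread, the chromosome IX medians were 0.42 in line 49 and 0.35 in line 50, and 56 chromosome IX features were beyond the other lines in place of 27. With quantile normalization the count was 55. Whether the differences in spread between columns come from the cultures or from the arrays was not tested.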

How the data were processed

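Transcripts of 23 yeast lines were measured on 2-channel spotted-oligo arrays against 1 reference strain. Per the labels, the authors deposited normalized log ratios, here read as log2; the sources used here do not state the log base, numerator, background correction, filters or whether a column averages the 2 biological replicates named by the design text. Values were used as deposited. Features (6334, none missing) were placed by systematic name and paired with R64 RefSeq symbols: 5623 exactly, 194 with a hyphen restored and 7 by synonym; 510 were unmatched.

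Lines 49 and 50 were set against the mean of the other 21 lines, without a test. Line 49 minus line 50 was tested with limma 3.58.1 in R 4.3.3 (eBayes, two-sided, Benjamini-Hochberg, adjusted p under 0.05), each lone column assumed to vary as the other lines do. Only 1 column per line is held, so p-values measure spread between lines, not between cultures of a line. Simulated data (6334 features) gave recovery of 1, 11, 35 and 46 of 50 changes of size 0.5, 1, 2 and 3, with 3 unchanged features called. Python 3.11.15, numpy 2.4.6, pandas 2.3.3 and matplotlib 3.10.9 were used.

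The pair, the 33 gene lists and the naming rule were chosen with earlier results of these data known. The rule named the 12 highest and 8 lowest mean differences on chromosome IX, the members of the chromosome IX lists, up to 4 of each other list, and off chromosome IX the features beyond the other lines in both. For line 49 minus line 50 it named called features, of which there were none; genes named there, and features beyond the other lines on chromosome IX, were chosen after their values were seen. Alternatives covered the baseline, centring, scaling, normalization, features used, lines left out and the variance model.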

Additional observations from a re-analysis of the deposited data

How the results depend on the processing

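Chromosome IX medians of both lines stayed positive and above those of all other lines under every alternative run. The pair was picked for these values, and each alternative used the same columns, so this describes the settings and is no separate support. Their values for line 49, line 50 and the pair's mean were 0.42, 0.35 and 0.39 with columns scaled to a common median absolute deviation, and 0.41, 0.38 and 0.39 with quantile normalization. With steadier features alone (SD at or under the median) line 50 gave 0.23 and the pair 0.27. Leaving out 1 member of the pair gave 0.27 to 0.33, which are the values of each line by itself. Features beyond the other lines, above on IX and above and below elsewhere, numbered 56, 18 and 27 with scaling and 55, 21 and 35 with quantile normalization. With 1 member of the pair left out they were 52 to 54, 88 to 141 and 99 to 115, with 0 to 2 below on IX, since 1 line then has to pass. Line 49 minus line 50 gave 1 call (1 positive, YGL132W) with unmoderated variances, 2 (2 positive, YGL132W and YKL177W) with scaling and 9 (5 positive and 4 negative, COS10 and ATG7 among the latter) with quantile normalization, and 0 under the other 5 alternatives; the cause was not tested. List medians that moved by more than the spread of the other lines were, with scaling and then quantile normalization, transport and surface 0.73 and 0.73 in line 49 and 0.74 and 0.75 in line 50, transcription 0.45 and 0.43, and 0.36 and 0.38, and protein folding 0.56 and 0.57, and 0.42 and 0.44. With quantile normalization line 50 also gave 0.41 for DNA replication, 0.43 for signalling and 0.14 for pheromone genes. Steadier features alone gave 0.30 for transport in line 50, and in line 49 0.62 for protein folding and -0.0077 for pheromone genes. The remaining 482 list values moved by less than that spread. Over all list values 22, in 12 lists and none over 0.17 in size as reported, changed sign, 1 of them in a chromosome IX list (allantoin genes, line 50). Among them, line 50 gave 0.09 for ribosome biogenesis with steadier features alone, and line 49 gave -0.07 for histones with quantile normalization. No paired analysis was possible because line numbers name the lines and are not shared between groups. With 1 column per line and ratios alone, the error of a single value was not measured.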
